A study of Mus musculus with 9 samples.

Results

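The 3' UTR counts of RNA crosslinked to the exon 5 form of Chtop were set against those of size-matched inputs, gene by gene. The comparison took 3 of the 9 libraries of the study from FLAG-Chtop with exon 5 and 3 from the inputs. Of 22442 genes in the 3' UTR table, 4584 had no 3' UTR entry and were left out, which left 17858. A 3' UTR count was present in at least 1 library for 10848 of them, and 4984 had enough counts to be tested. The starting set was therefore all genes with a 3' UTR, but the genes tested were picked by their counts. Of these, 1068 had no count in any input and 39 had none with exon 5. Many genes thus entered through the deeper immunoprecipitates, and shares and medians over the genes tested carry that selection.

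Chtop is a nuclear RNA-binding protein with an arginine- and glycine-rich region that the methyltransferase Prmt1 modifies. It works with the TREX complex, in which the helicase Ddx39b and adaptors such as Alyref hand spliced mRNA to the export receptor Nxf1. The 3' UTR follows the stop codon and is where microRNAs and many proteins that set mRNA stability, translation and localisation bind.

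The cells were N2a Flp-In rtTA, a mouse neuroblastoma line in which a tagged cDNA is switched on from a doxycycline-inducible site. In iCLIP, RNA is fixed to protein by ultraviolet light, recovered with an antibody and sequenced. All lines had received doxycycline (2 µg/mL, 24 hours) and light at 254 nm (0.15 J/cm2). The tested libraries were anti-FLAG immunoprecipitates from the line that expressed FLAG-Chtop with exon 5. A second set of 3 libraries, from the line that expressed FLAG-Chtop without exon 5, entered the same fit. Each size-matched input was 2% of a crosslinked lysate, cut from the same kind of gel with no antibody step. The inputs came from 3 different lines: input 1 from FLAG-Chtop without exon 5, input 2 from FLAG-Chtop with exon 5 and input 3 from FLAG-GFP. Only input 2 shared its line with the tested immunoprecipitates. Replicates are described as independent and handled on separate days. The headers of the count columns number inputs 1 and 2 the other way round than the sample titles. The reverse transcription primers settled which was which, and the numbers used here are those of the titles. Each line expresses a tagged protein in addition to the cell's own Chtop, which limits all groups as a model.

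Depth differed between the groups. The 3' UTR table held 242265, 256170 and 369534 counts with exon 5, against 54799, 87051 and 38926 counts in the inputs. Levels below are CPM, that is 3' UTR counts relative to the library's total after scaling by TMM. TMM sets a factor per library that is meant to even out composition. The factors were 0.94, 0.89 and 0.85 with exon 5 and 1.42, 1.00 and 1.83 in inputs 1, 2 and 3. Among the inputs they were larger where counts were fewer, and the part of depth in them was not tested. A count of 3 in a library was worth 9.54 to 13.2 CPM with exon 5 and 34.5 to 42.2 CPM in the inputs. Between 6468 and 6860 genes had a 3' UTR count in a library with exon 5, against 1842 to 4835 in an input. Across the genes tested, log CPM correlated at 0.5345 to 0.5595 between the libraries with exon 5 and at 0.2389 to 0.3442 between the inputs. The inputs had fewer counts and differed in depth, and the part of this in the correlations was not tested. Between the groups the correlation was 0.1273 to 0.2354. Of 22 listed genes of neuroblastoma and sympathetic neurons, 14 had a 3' UTR entry. Of these, 13 had a 3' UTR count and Dbh was at 0. Their summed level was 1671 to 2158 CPM with exon 5 and 548 to 3062 CPM in the inputs. Of 13 listed markers of other cell types with a 3' UTR entry, 10 were at 0 in both groups, including Col1a2, Pdgfra and Cdh5. Their summed level was 35.3 to 60.4 CPM with exon 5 and 0 to 155 CPM in the inputs.

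The 3' UTR of the Chtop gene (2557 bases, ENSMUSG00000001017.15, GRCm38 chromosome 3 from 90498539 to 90509527) had 78, 161 and 145 counts with exon 5, against 17, 6 and 0 in the inputs. These were 343, 710 and 461 CPM with exon 5 and 219, 69.1 and 0 CPM in the inputs, without overlap. The edgeR log2 fold change was 2.38 (SE 1.21, adjusted p = 0.181), which did not pass the threshold. The labels do not say whether the cDNA carries this 3' UTR, and the value therefore does not check them.

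The share of a library's counts that lay in 3' UTRs was lower with exon 5 than in the inputs. It was 30.9%, 30.1% and 27.8% in the libraries with exon 5 (29.6% ± 1.60, SD, n = 3), against 48.9%, 50.2% and 51.6% in the inputs (50.2% ± 1.31, SD, n = 3). The groups did not overlap, with every input above every immunoprecipitate. The difference was -20.6 percentage points, and the two-sided exact permutation p of 0.1 is the smallest that 3 libraries against 3 allow. Leaving out Lars2, D10Wsu102e and Scd2, the genes with the most input counts, gave -17.1 points. These 3 genes held 12.4% to 14.3% of input 3' UTR counts and 0.592% to 0.640% of those with exon 5. The isoform without exon 5, which is set against the same inputs, had a share of 28.8% ± 1.26 (SD, n = 3). The tests of exon 5 over input on the 3' UTRs of single genes use 3' UTR counts alone, so they compare the make-up of the 3' UTR fraction and leave this difference out. The 3' UTR share is a split of counts among gene parts, not a measure of how much RNA the cells held. For levels of single genes in such bulk libraries, fewer cells with an RNA and less RNA per cell cannot be told apart.

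**Figure D1:**
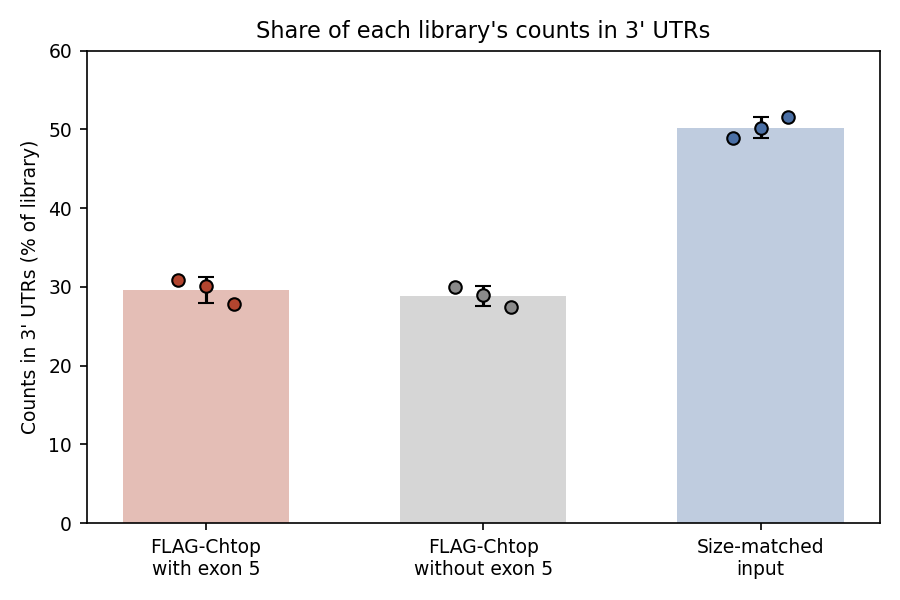
The share of each library's counts that lay in 3' UTRs is plotted in percent, with bars for the group mean, error bars for the SD and points for the 3 libraries of each group. FLAG-Chtop with exon 5 averaged 29.6%, FLAG-Chtop without exon 5 averaged 28.8% and the inputs averaged 50.2%.

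Of the 4984 genes tested, 505 were higher with exon 5 than in input (10.1%) and 28 were lower (0.562%) by the quasi-likelihood F-test of edgeR at an adjusted p under 0.05. Among the 4270 tested genes with a symbol, 504 were higher (11.8%) and 18 were lower (0.422%). Some symbols came from a deposited table that lists genes seen with the isoforms, so named genes are not an even sample of both directions. The groups did not overlap for 1614 genes that were higher with exon 5 (32.4%) and for 155 that were lower (3.11%). The median log2 fold change over all genes tested was 1.37. It was 0.88 with genes at 0 in a group set to the bound that 3 counts per library allow, and 0.12 over the 2849 genes with at least 10 input counts. The latter subset is picked by input counts, the denominator of the fold change, which by itself favours lower values. For 371 of the 505 higher genes all 3 inputs were at 0, and 64 more had 1 to 3 input counts. Only 41 had at least 10 input counts, with log2 fold changes of 2.44 to 5.14. For 224 of the 505, 1 library with exon 5 held more CPM than the other 2 together. The counts depended on the libraries: without replicate 1, 2 or 3 with exon 5, the test found 8, 5 and 9 genes higher and 1, 1 and 2 lower. Without input 1, 2 or 3, it found 313, 1376 and 472 higher and 23, 46 and 49 lower. Scaling by library size alone, without TMM factors, gave 165 higher and 34 lower and a median of 0.87. A fit on the 6 libraries alone, with no isoform without exon 5 to share the estimate of spread, gave 3 of each.

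**Figure D2:**
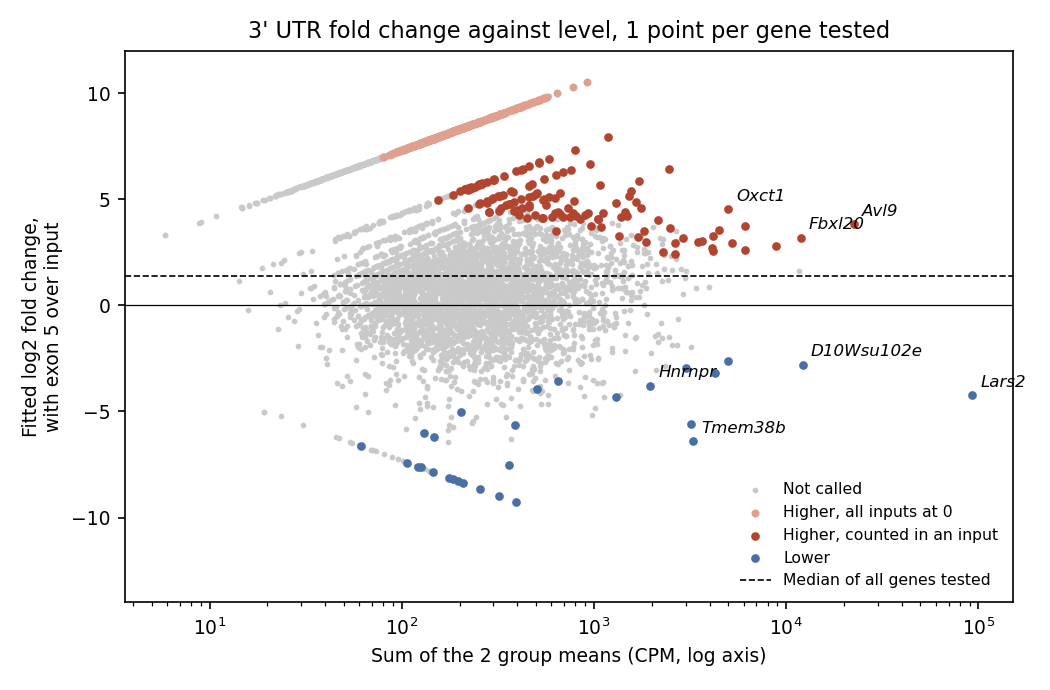
Each point is 1 of the 4984 genes tested, with the sum of both group means in CPM on a log axis and the fitted log2 fold change of exon 5 over input on the vertical axis. The 371 higher genes with all inputs at 0 lie on the upper diagonal, where the fitted value depends on the prior count, and the dashed line is the median of 1.37.

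Avl9, Oxct1 and Fbxl20 were the genes that passed as higher with exon 5 in all 20 fits, the alternatives included. Avl9 (ENSMUSG00000029787.10, chromosome 6, 56714839 to 56761912, 3' UTR of 4709 bases) is related to a yeast protein of late secretory transport. It had 3880, 4679 and 7953 3' UTR counts with exon 5, against 72, 205 and 82 in the inputs. These were 17055, 20635 and 25286 CPM with exon 5 and 927, 2360 and 1153 CPM in the inputs. Every library with exon 5 was far above every input. The log2 fold change was 3.82 (SE 0.47, adjusted p = 0.000274), and 3.66 to 4.74 when 1 library was left out. Per kilobase of 3' UTR, the Avl9 level was 4458 ± 877 CPM with exon 5 and 314 ± 164 CPM in the inputs (SD, n = 3 each). Over all genes tested, the median level per kilobase was 62.5 CPM with exon 5 and 23.3 CPM in the inputs.

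Oxct1 (ENSMUSG00000022186.14, chromosome 15, 4026428 to 4155344, 3' UTR of 1578 bases) encodes the mitochondrial transferase that lets cells burn ketone bodies. It had 836, 955 and 2036 counts with exon 5, against 9, 21 and 19 in the inputs. The CPM values were 3675, 4212 and 6473 with exon 5 and 116, 242 and 267 in the inputs. Its fitted log2 fold change was 4.52 (SE 0.71, adjusted p = 0.00555), and the adjusted p was at most 0.0450 when 1 library was left out. Fbxl20 (ENSMUSG00000020883.18, chromosome 11, 98082554 to 98150921, 3' UTR of 7389 bases) encodes a substrate receptor of an SCF ubiquitin ligase. It had 2042, 2309 and 4083 counts with exon 5, against 50, 145 and 85 in the inputs. The CPM values were 8976, 10183 and 12982 with exon 5 and 644, 1669 and 1195 in the inputs, again without overlap. Its fitted log2 fold change was 3.19 (SE 0.52, adjusted p = 0.00633). For Fbxl20 the value was 3.95 without input 2. With the 6 libraries alone, adjusted p was 0.0103 for Avl9, 0.0227 for Oxct1 and 0.0346 for Fbxl20.

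**Figure D3:**
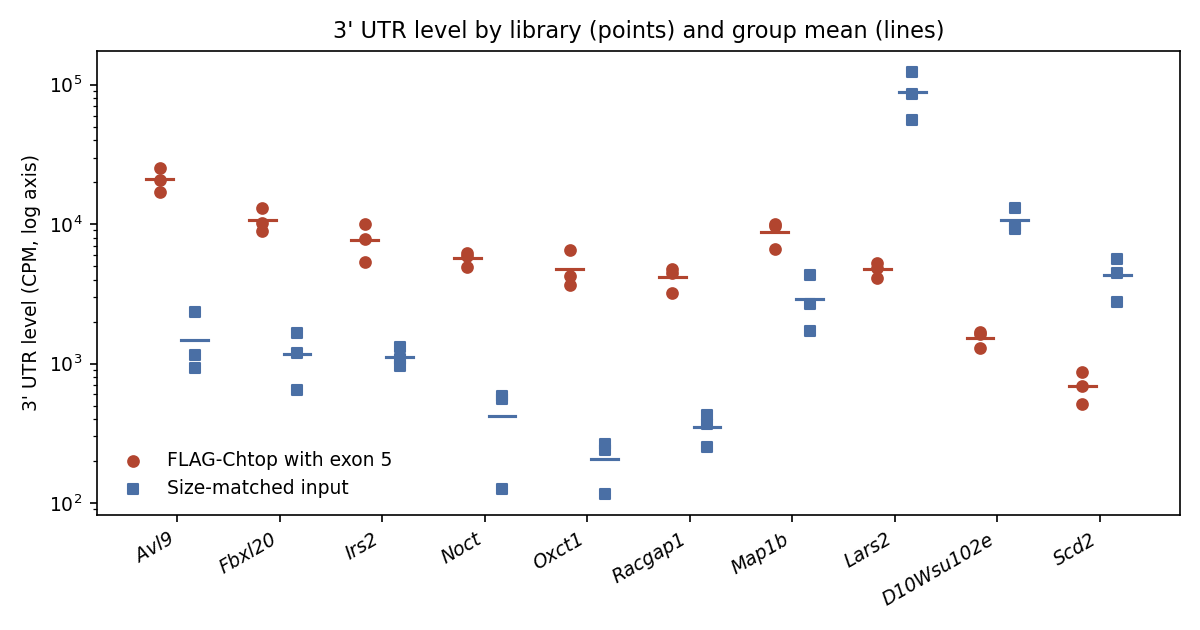
3' UTR levels in CPM are plotted on a log axis for 10 genes, with 1 point per library, FLAG-Chtop with exon 5 left of size-matched input, and a line at each group mean. Avl9 lies at 17055 to 25286 CPM with exon 5 and 927 to 2360 CPM in the inputs, and Lars2 lies the other way round.

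Actn1, an actin crosslinker named after its values were seen, also passed without each of the 3 libraries with exon 5. It had 166, 206 and 602 counts with exon 5, against 0, 1 and 0 in the inputs. The ratio of summed counts over summed scaled library sizes was 299 (exact 95% interval 53.5 to 11802, counting error only), and the adjusted p was 0.00633.

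Further well-counted genes were higher with the full set of libraries. Noct, which encodes nocturnin, a phosphatase of NADP(H) whose mRNA cycles with the clock, had 1124, 1410 and 1870 counts with exon 5, against 43, 51 and 9 in the inputs. Its level was 4941, 6218 and 5946 CPM with exon 5 and 554, 587 and 127 CPM in the inputs. No input came near the immunoprecipitates. The log2 fold change was 3.75 (SE 0.65, adjusted p = 0.00928), and 4.45 without input 2. Among the fits that left out a library, it missed the threshold only without replicate 2 among the libraries with exon 5 (adjusted p = 0.0524). Per kilobase, Noct stood at 5113 ± 603 CPM with exon 5, the highest of the named genes with a 3' UTR of at least 200 bases, and at 379 ± 230 CPM in the inputs. Grina, a membrane protein of the TMBIM family, was also among the highest per kilobase, at 3772 ± 1684 CPM with exon 5 and 228 ± 374 CPM in the inputs (SD, n = 3 each). It had 225, 583 and 806 counts with exon 5 and 1, 31 and 0 in the inputs (adjusted p = 0.0370, log2 fold change 4.02, SE 1.14). Without input 2 its value was 8.51, and its call was lost without input 1 (adjusted p = 0.0523) and without replicate 1, 2 or 3 with exon 5 (0.0684 to 0.0850). Racgap1, a GTPase-activating protein of cytokinesis, had 729, 1010 and 1505 counts with exon 5 and 33, 32 and 18 in the inputs (adjusted p = 0.0106, log2 fold change 3.57, SE 0.64). The insulin receptor adaptor gene Irs2 had 1222, 1783 and 3129 counts with exon 5 and 75, 114 and 77 in the inputs (adjusted p = 0.0153, log2 fold change 2.79, SE 0.54). Both sets of libraries were well apart for these genes. Without 1 library with exon 5, adjusted p was 0.0547 to 0.0630 for Racgap1 and 0.0547 to 0.0673 for Irs2. Map1b, a microtubule-associated protein of axons, had 1496, 2252 and 3065 counts with exon 5 and 206, 373 and 122 in the inputs. Its groups did not overlap, but its log2 fold change of 1.60 (SE 0.52, adjusted p = 0.0531) did not pass.

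The next genes were picked among those higher with at least 10 input counts and groups that did not overlap. The log2 fold changes of the leading 10 were 4.21 to 5.14. Gigyf1, a partner of the cap-binding repressor 4EHP, led with 350, 274 and 539 counts with exon 5, against 2, 6 and 2 in the inputs (adjusted p = 0.0150, log2 fold change 5.14, SE 0.98). The mitochondrial iron importer gene Slc25a37 followed with 374, 454 and 372 counts with exon 5 and 0, 7 and 6 in the inputs (adjusted p = 0.0198, log2 fold change 4.86, SE 1.10). The uncharacterised 9430015G10Rik, Gse1, Oxct1, the diacylglycerol kinase gene Dgkz, the nuclear pore gene Nup210, the guanine nucleotide exchange factor gene Arhgef11, the bicarbonate transporter gene Slc4a8 and the synaptotagmin gene Syt6 completed the 10. For Gse1, Nup210 and Slc4a8 all input counts lay in input 2, and for Dgkz and Arhgef11 all lay in input 1. Without input 2, Gse1, Nup210 and Slc4a8 had log2 fold changes of 11.56, 10.89 and 10.57, which then rest on inputs at 0. Without input 1, Dgkz and Arhgef11 had 11.19 and 10.55, likewise on inputs at 0, and 9430015G10Rik had 7.55 in place of 4.84. Without input 2, the values were 6.15 for Gigyf1, 5.67 for Slc25a37 and 6.50 in place of 4.21 for Syt6. Without input 1, adjusted p was 0.0600 for Nup210, 0.0621 for Slc4a8 and 0.0564 for Syt6. Of the 10, Oxct1 alone passed without each library with exon 5.

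The 371 higher genes with inputs at 0 have lower bounds only, computed against 3 counts in each input. The bounds ran from 2.08-fold to 24.0-fold, with a median of 4.70-fold. Dgkq, another diacylglycerol kinase gene, was at least 24.0-fold higher with 474, 74 and 112 counts, a bound that fell to 8.87-fold without replicate 1. Phldb1, which encodes a membrane-binding protein that organises cortical microtubules, was at least 20.3-fold higher with 85, 236 and 291 counts. The ATP-gated channel gene P2rx7 was at least 16.8-fold higher with 94, 192 and 212 counts. All 10 genes named here were picked for counts in every library with exon 5 and none in any input. Next came the Ral GTPase-activating gene Ralgapa1 (at least 14.8-fold), the Wnt signal transducer gene Dvl1 (14.4-fold), Ubn1 of a histone chaperone complex (14.3-fold), the polycystin gene Pkd1 (14.2-fold), Unkl (13.7-fold), Trrap of histone acetyltransferase complexes (13.5-fold) and the ceramide kinase gene Cerk (13.4-fold). The bound was 7.48-fold for Ubn1 without replicate 1 and 7.04-fold for Cerk without replicate 3. Trrap was even, with 119, 118 and 160 counts with exon 5. All 10 passed without each input, and Dgkq, Phldb1 and P2rx7 passed in some of the fits that left out a library with exon 5 (adjusted p over the 10 genes 0.0310 to 0.0702).

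Lars2 was the gene that passed as lower with exon 5 in all 20 fits. It encodes the mitochondrial leucyl-tRNA synthetase (ENSMUSG00000035202.8, chromosome 9, 123366927 to 123462675, 3' UTR of 989 bases). Its 3' UTR had 933, 1190 and 1517 counts with exon 5, against 6686, 10714 and 3942 in the inputs. The CPM values were 4101, 5248 and 4823 with exon 5 and 86126, 123349 and 55429 in the inputs. Every input was far above every immunoprecipitate. The log2 fold change was -4.22 (SE 0.39, adjusted p = 4.48e-06), and -4.31 to -3.51 when 1 library was left out. Per kilobase Lars2 stood at 4777 ± 586 CPM with exon 5, close to Noct and Avl9, and at 89283 ± 34391 CPM in the inputs. Its coding sequence had 188 counts with exon 5 and 21 in the inputs in all, with a log2 fold change of 0.64 (SE 1.50, adjusted p = 0.813).

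D10Wsu102e, with 383, 293 and 512 counts with exon 5 and 712, 1137 and 691 in the inputs, was lower as well (adjusted p = 0.0155, log2 fold change -2.80, SE 0.55). Its annotated 3' UTR is 122586 bases long, longer than the gene itself, which spans chromosome 10, 83360221 to 83368835. Once a trend of fold change on 3' UTR length was removed, its value turned to 2.91 (adjusted p = 0.0102), and adjusted p was 0.0615 to 0.0708 without 1 library with exon 5. The fatty acid desaturase gene Scd2 had 198, 157 and 160 counts with exon 5 and 435, 387 and 198 in the inputs (adjusted p = 0.0345, log2 fold change -2.63, SE 0.73), but did not pass without replicate 1, 2 or 3 with exon 5 (adjusted p = 0.0975 to 0.121) or without input 1 (0.0541). Tmem38b, a cation channel gene of the endoplasmic reticulum, had 2, 2 and 29 counts with exon 5, against 250, 440 and 98 in the inputs. Replicate 3 thus stood above the other 2 libraries with exon 5. It lay below all inputs, which the choice of Tmem38b required. Its fitted log2 fold change was -6.40 (SE 1.15, adjusted p = 0.0106), and adjusted p was 0.0236 to 0.0577 without 1 library with exon 5.

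Further genes with a symbol were lower, and were picked with groups that did not overlap. Ntrk2, the receptor of brain-derived neurotrophic factor, had no count with exon 5 and 5, 14 and 10 in the inputs, which made it at least 10.2-fold lower. Epas1, a hypoxia-inducible transcription factor, also had none with exon 5 and 22, 2 and 1 in the inputs. Its bound of 8.91-fold fell to 1.55-fold without input 1 (adjusted p = 0.144). Armc8, a subunit of an E3 ubiquitin ligase, had none with exon 5 and 5, 8 and 2 in the inputs, for at least 5.14-fold. The small GTPase gene Rhoq (0, 3 and 1 counts with exon 5, 13, 10 and 22 in the inputs) and the actin-severing cofilin gene Cfl1 (9, 10 and 3 with exon 5, 36, 65 and 15 in the inputs) had log2 fold changes of -5.04 and -3.92. Hnrnpr, an RNA-binding protein with an annotated 3' UTR of 19422 bases, had 2, 31 and 78 counts with exon 5 and 110, 311 and 34 in the inputs. The lowest input for Hnrnpr stood at 478 CPM and the highest library with exon 5 at 248 CPM. Its log2 fold change of -3.79 was -2.44 without input 2 (adjusted p = 0.111) and -0.75 once a trend on 3' UTR length was removed (adjusted p = 0.668). The endoplasmic reticulum chaperone gene Hspa5 had 17, 11 and 9 counts with exon 5 and 30, 46 and 62 in the inputs (adjusted p = 0.0481, log2 fold change -3.55, SE 1.12). None of these 7 genes passed when replicate 1, 2 or 3 with exon 5 was left out (adjusted p = 0.0885 to 0.172). Ntrk2 also did not pass without input 1, 2 or 3 (adjusted p = 0.0626, 0.0663 and 0.0898). The call was also lost without input 1 for Armc8, Rhoq and Cfl1 (adjusted p = 0.0641, 0.0564 and 0.0587), without input 2 for Cfl1 (0.0635) and without input 3 for Rhoq and Hspa5 (0.0898 and 0.0627).

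The gene lists below are described by counts and medians against all tested genes with a symbol. Of these, 11.8% were higher and 0.422% were lower. Their median log2 fold change was 1.61, or 1.09 with genes at 0 set to their bound. Of list members, Fbxl20 alone passed without each library with exon 5, and Tmem38b passed without 1 of them. Apart from these 2 genes, every list count was 0 in those fits. Leaving out 1 input ended some of the calls too, with adjusted p up to 0.111 except for Rpl5. Without input 2, the deepest input, counts and medians were mostly larger: over all genes tested, 1376 of 5900 were higher and the median was 4.91. There, 9 of 19 export factors were higher (median 7.59), 14 of 50 splicing regulators, 16 of 42 chromatin regulators and 16 of 46 synapse genes. The medians of immediate-early, selenoprotein, cell cycle, translation factor, proteasome and chaperone, and neuroblastoma genes, given below, each changed sign with another scaling or without 1 library. With library size alone, the number of calls was the same for immediate-early (2), localised (2) and secretory genes (2). It was 0 for 3' UTR-binding regulators, chromatin regulators, cell cycle genes, translation factors and ribosomal proteins. For splicing regulators, synapse genes and signalling genes with long 3' UTRs, 2, 1 and 1 were higher.

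Among mRNA export factors, the partners of Chtop, 5 of 17 tested identifiers were higher and none was lower, with a median log2 fold change of 2.60, or 1.82 with genes at 0 set to their bound. They stand for 4 genes, since Zc3h11a, a zinc finger protein of the export complex, is listed under 2 identifiers with the same counts. The helicase gene Ddx39b had 40, 16 and 51 counts with exon 5 and none in the inputs (at least 3.54-fold higher). The export cofactor gene Poldip3 had 18, 52 and 38 with exon 5 and none in the inputs (at least 3.72-fold higher). Pcid2 of the TREX-2 complex had 22, 21 and 42 with exon 5 and none in the inputs (at least 2.80-fold higher). Zc3h11a had 239, 230 and 281 with exon 5 and 0, 15 and 0 in the inputs (adjusted p = 0.0457, log2 fold change 4.05, SE 1.26). All its input counts lay in input 2, without which the value was 10.78, and the call was lost without input 1 (adjusted p = 0.0564). With library size alone, none of the 17 was higher, 1 was lower and the median was 2.29.

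Of 13 cleavage and polyadenylation factors, which cut the pre-mRNA and add its tail, none passed, with a median of 0.97. The median was 4.99 without input 2 (2 of 15 higher), -0.08 without replicate 1 with exon 5 and -0.11 with library sizes that leave out Lars2, D10Wsu102e and Scd2. Cstf2, its best-counted member, had 189, 114 and 73 counts with exon 5 and 0, 35 and 28 in the inputs (adjusted p = 0.643, log2 fold change 0.97, SE 1.22). Of 36 proteins of microRNA action and 3' UTR binding, 2 were higher and none was lower, with a median of 1.03. They were Stau1, which binds double-stranded 3' UTR stems (16, 28 and 112 counts with exon 5 and none in the inputs, at least 4.77-fold, or 2.52-fold without replicate 3), and Fmr1, the fragile X translational repressor (44, 41 and 21 with exon 5 and none in the inputs, at least 3.82-fold). Of 14 immediate-early and AU-rich mRNAs, Irs2 and Vegfa were higher, with a median of 0.54. The growth factor gene Vegfa had 579, 865 and 1383 counts with exon 5 and 65, 58 and 9 in the inputs (adjusted p = 0.0289, log2 fold change 2.72, SE 0.70). Both also passed with library size alone. Of 3 selenoprotein mRNAs, whose 3' UTRs carry the element that recodes UGA, none passed, with a median of 0.45. Txnrd1 had 103, 124 and 156 counts with exon 5 and 13, 32 and 0 in the inputs (adjusted p = 0.427, log2 fold change 1.47, SE 1.16).

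Of 48 SR proteins and splicing regulators, 4 were higher and 1 was lower, with a median of 0.92. Taf15 had 46, 51 and 55 counts with exon 5 and none in the inputs (at least 5.22-fold higher). Pcbp4 had 43, 37 and 127 with exon 5 and 0, 1 and 0 in the inputs, a ratio of 63.4 (exact 95% interval 11.3 to 2518). Hnrnpul1 had 58, 41 and 64 with exon 5 and 0, 2 and 0 in the inputs, a ratio of 25.0 (exact 95% interval 6.80 to 208). Hnrnpd, the AU-rich binding protein AUF1, had 69, 92 and 138 with exon 5 and 0, 4 and 0 in the inputs (adjusted p = 0.0437, log2 fold change 4.51, SE 1.38). Without input 2 the value for Hnrnpd was 9.42, and without input 1 its call was lost (adjusted p = 0.0620). Input 2 also held the only input counts of Pcbp4 and Hnrnpul1. The lower one was Hnrnpr. Of 40 chromatin regulators, 5 were higher and none was lower, with a median of 1.95, and 1.33 with bounds. They included the methyltransferase gene Kmt2c (25, 24 and 76 counts with exon 5), the demethylase genes Kdm4a (21, 25 and 56) and Kdm3a (9, 19 and 54) and the DNA dioxygenase gene Tet3 (48, 15 and 14), all with no input count. Their bounds were 3.96-fold, 3.30-fold, 2.56-fold and 2.79-fold. Without replicate 3 the bound of Kdm3a was 1.60-fold, and without replicate 1 that of Tet3 was 1.44-fold.

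Of 40 synapse, axon and ion channel genes, 3 were higher and none was lower, with a median of 1.52. Cntnap1, a protein of axon-glia junctions, had 46, 34 and 51 counts with exon 5 and none in the inputs (at least 4.46-fold higher). Syt6 had 189, 141 and 873 with exon 5 and 3, 16 and 0 in the inputs. The synaptic vesicle gene Syn1 had 0, 149 and 33 with exon 5 and none in the inputs, so that its bound of 6.61-fold was 1.36-fold without replicate 2. Of 20 mRNAs known to be localised in neurons, none was higher, and Ntrk2 and Cfl1 were lower, with a median of 1.02. Of 16 cell cycle genes, Top2a (38, 19 and 63 counts with exon 5, none in the inputs, at least 3.91-fold) and Cdc25b (22, 47 and 21 with exon 5, none in the inputs, at least 3.21-fold) were higher, with a median of 1.57. Of 43 kinase, ubiquitin and signalling genes with long 3' UTRs, 3 were higher, with a median of 0.81. Besides Fbxl20 these were the calcineurin gene Ppp3ca (165, 80 and 139 with exon 5, 0, 6 and 1 in the inputs) and Rictor of the mTORC2 complex (235, 294 and 414 with exon 5, 16, 2 and 11 in the inputs).

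Secretory and membrane glycoprotein genes were the list with the lowest median among those with at least 8 members tested. Of 30 tested, none was higher and 2, Tmem38b and Hspa5, were lower, and their median log2 fold change was -0.84. The groups did not overlap for 8 of the 30 that were lower and for none that was higher. Among the 4270 tested genes with a symbol these numbers were 95 and 1571, and among all genes tested the shares were 3.11% and 32.4%. The median was also below 0 with library size alone (-1.24) and with RLE factors (-0.95), but turned to 0.077 without input 2, where 1 of 31 was higher and 2 were lower. Of 20 translation factors, Eif4g3 (31, 18 and 78 counts with exon 5, none in the inputs, at least 4.02-fold) was higher, with a median of -0.01. Of 16 proteasome and chaperone genes none passed, with a median of 0.04, and Dnajc5 had 111, 55 and 61 counts with exon 5 and 20, 14 and 0 in the inputs. These last 2 medians lay at -0.63 and -0.38 with library size alone. Of 44 ribosomal protein genes with a 3' UTR entry, 2 had enough counts. Rpl5 was lower, with no count with exon 5 and 0, 46 and 0 in the inputs, so that without input 2 neither group had a count. No respiratory chain gene and no replication-dependent histone gene had enough 3' UTR counts to be tested. Of 8 tested neuroblastoma genes none passed, with a median of 0.12, and the transcription factor gene Hand2 had 151, 48 and 161 counts with exon 5 and 7, 1 and 14 in the inputs (adjusted p = 0.216, log2 fold change 2.22, SE 1.21). Of the markers of other cell types, Mbp alone was tested (0, 8 and 18 counts with exon 5, none in the inputs) and did not pass.

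**Figure D4:**
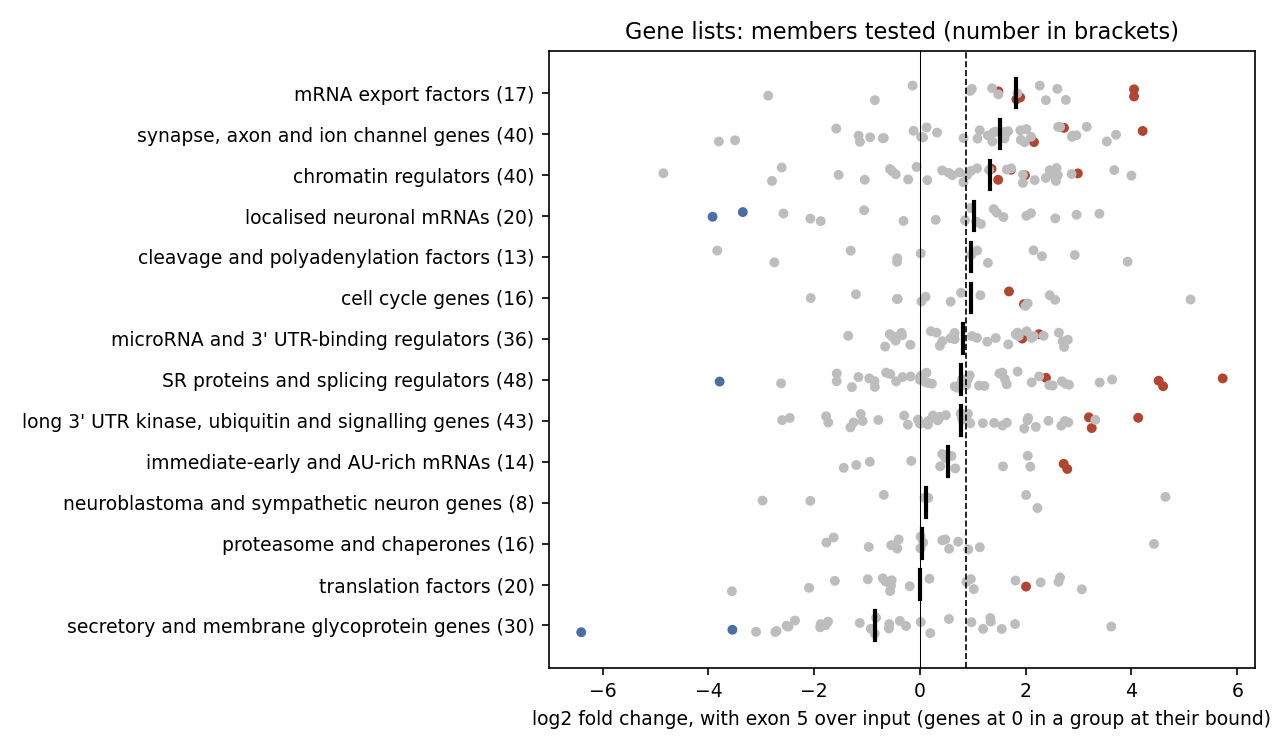
Each point is 1 tested member of a gene list, placed by its log2 fold change of exon 5 over input, with genes at 0 in a group set to their bound; called members are red (higher) or blue (lower), and black bars are list medians. The dashed line is the median of all genes tested (0.88), which was 1.09 over tested genes with a symbol. Among lists with at least 8 members tested, mRNA export factors (1.82) and secretory and membrane glycoprotein genes (-0.84) stand at the ends.

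The fold change varied with the annotated length of the 3' UTR, and its direction depended on which genes were counted. In the order under 500, 500 to 999, 1000 to 1999, 2000 to 3999 and 4000 or more bases, the share of tested genes that were higher was 10.5%, 11.2%, 11.3%, 10.9% and 5.35%. The median log2 fold change was 1.99, 2.16, 1.66, 1.28 and 0.59 in the same order. With genes at 0 set to their bound it was 0.54, 0.93, 1.00, 0.99 and 0.49. Among the 108, 303, 729, 1050 and 659 genes with at least 10 input counts, it was -1.08, -0.39, -0.00, 0.37 and 0.16. That subset is picked by the denominator of the fold change, which by itself favours lower values. The share of tested genes with all inputs at 0 was 44.6%, 35.1%, 25.0%, 15.6% and 6.57%, so the shortest 3' UTRs most often had no input count. Its part in the trend was not tested. The longest minus the shortest bin was -1.40 over all genes tested, and -4.54, -3.76 and -3.41 without input 1, 2 or 3. Genes that were higher had a median 3' UTR of 1754 bases, those lower 1482.5 bases and all those tested 1999 bases. The median coding lengths were 2337, 1209 and 1716 bases in that order. The called genes with the longest and the shortest 3' UTR among those higher were Sbno1 (9455 bases, 45, 53 and 13 counts with exon 5 and none in the inputs) and the ubiquitin ligase gene Trip12 (158 bases, 26, 11 and 79 with exon 5 and none in the inputs). Among those lower they were D10Wsu102e and Igsf8, a membrane protein that associates with tetraspanins (276 bases, no count with exon 5 and 11, 0 and 32 in the inputs, so that the groups overlapped). Its adjusted p was 0.0415, with 0.123 without input 3 and 0.0523 without input 1, and 0.0975 to 0.102 without 1 library with exon 5.

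**Figure D5:**
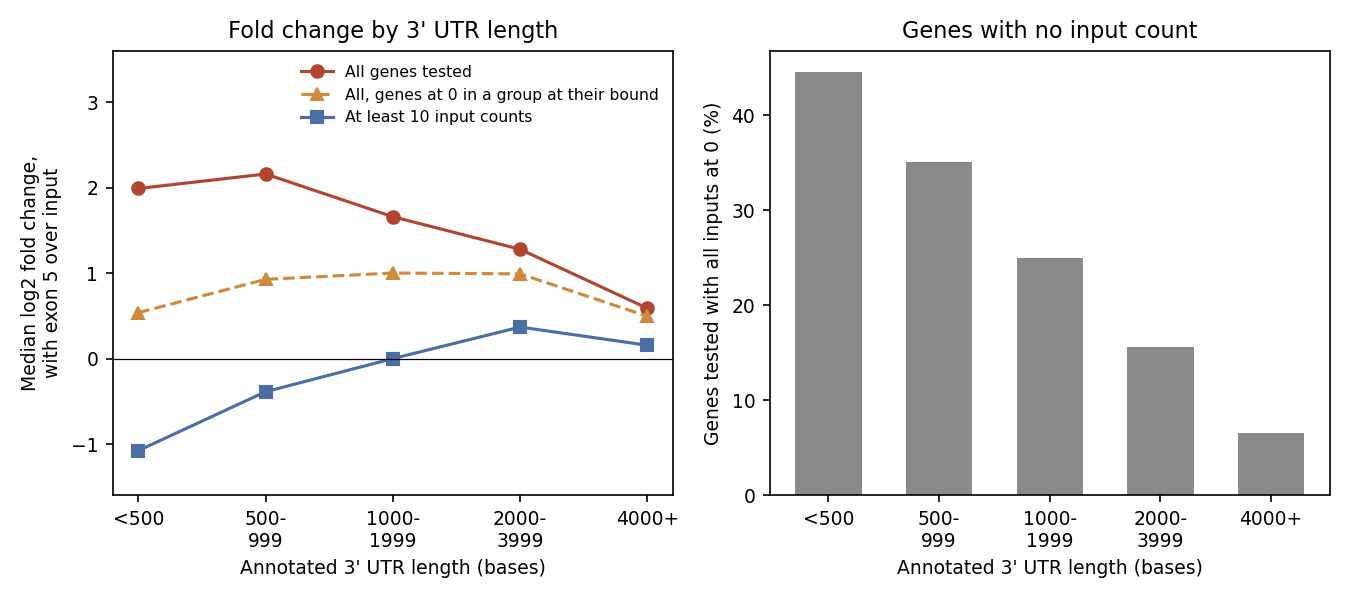
The left panel plots the median log2 fold change of exon 5 over input by bin of 3' UTR length for all genes tested, for all with genes at 0 in a group at their bound, and for genes with at least 10 input counts; the right panel gives the percentage of tested genes with all inputs at 0. The first median was 1.99 in the shortest bin and 0.59 in the longest, whereas with at least 10 input counts it was -1.08 and 0.16.

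As a share of 3' UTR counts, genes with 3' UTRs of 500 to 999 bases took 11.0% ± 0.22 with exon 5 and 21.7% ± 0.98 in the inputs (SD, n = 3 each). Lars2, with 989 bases, lies in that bin. Genes with 2000 to 3999 bases took 36.9% ± 0.19 with exon 5 and 27.7% ± 2.11 in the inputs. Those with 4000 or more took 23.8% ± 0.32 with exon 5 and 23.1% ± 0.72 in the inputs, and these groups overlapped. For 1000 to 1999 bases the shares were 24.7% ± 0.14 with exon 5 and 23.0% ± 3.24 in the inputs, which overlapped. Without Lars2, the bin of 500 to 999 bases took 10.6% ± 0.214 with exon 5 and 11.4% ± 0.344 in the inputs. Also without Lars2, 2000 to 3999 bases took 37.1% ± 0.19 with exon 5 and 31.4% ± 2.79 in the inputs, and 4000 or more took 23.9% ± 0.33 with exon 5 and 26.2% ± 1.02 in the inputs.

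The coding sequence (CDS) of the same genes was counted in the same libraries and set against the same inputs, so it is not an independent measure. Of the 505 genes with a higher 3' UTR, 461 had a CDS that could be tested, and 404 of these had a CDS fold change above 0 and 107 passed as higher. In the CDS table as a whole, 885 of 6376 genes passed as higher (13.9%). The median CDS log2 fold change there was 1.58, so most genes lay above 0 in any case. Of the 28 lower genes, 18 had a tested CDS and 2 passed as lower, against 0.878% of the CDS table. Avl9, Noct, Racgap1 and Irs2 passed as higher in the CDS as well, with log2 fold changes of 2.68, 2.07, 2.79 and 3.09 there. Oxct1 had a CDS log2 fold change of 1.35 (SE 1.10, adjusted p = 0.425) and Fbxl20 one of 2.25 (SE 1.00, adjusted p = 0.128), and neither passed.

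Relative use of the 3' UTR and the CDS within a gene was tested for 3973 genes. With exon 5, 3' UTR use was higher than in input for 10 (0.252%) and lower for 85 (2.14%). This test takes both parts together, so it does not leave out the difference in 3' UTR share between whole libraries. That share was 29.6% with exon 5 and 50.2% in the inputs, and its part in the 10 and 85 calls was not tested. Of the 85, 71 had no CDS count in any input, and of the 10, 9 had no 3' UTR count in any input. Taf8 of the TFIID complex, the phosphodiesterase gene Pde10a, Ammecr1l and the receptor kinase gene Grk6 were among the leading genes of those that were higher. Pde10a had 366 3' UTR and 157 CDS counts with exon 5 in all, against 0 and 92 in the inputs. Grk6 had 262 and 179 with exon 5, against 0 and 58 in the inputs. The 3' UTR thus held 51.1%, 76.3% and 84.1% of these counts of Pde10a in the libraries with exon 5 and 0% in both inputs that counted it. At the other end were Armc8, Vrk1, Snd1, Sphk2 and Shprh. Shprh, a ubiquitin ligase gene, had 77 3' UTR and 477 CDS counts with exon 5, against 77 and 0 in the inputs. The granule protein gene Snd1 had 15 and 604 with exon 5, against 22 and 0 in the inputs. Lars2 passed here too, with its 3' UTR holding 92.9%, 99.3% and 93.3% with exon 5 and 99.8% to 100% in the inputs. The total of 95 calls was 0, 24 and 0 without replicate 1, 2 or 3 with exon 5, and 259 without input 2.

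The isoform without exon 5 was compared with the same 3 inputs, so both sets of fold changes share them. It gave 612 genes higher (12.3%) and 19 lower (0.381%). Of the genes called with exon 5, 431 of the 505 higher and 6 of the 28 lower passed there too. Side by side, the log2 fold changes with and without exon 5 over input were 3.82 and 3.99 for Avl9, 4.52 and 4.09 for Oxct1, 3.19 and 3.72 for Fbxl20, and 3.75 and 4.27 for Noct. They were -4.22 and -3.61 for Lars2 and -2.80 and -2.85 for D10Wsu102e. Set directly against each other, the isoforms gave 0 calls among 4984 genes by edgeR, with 93 genes at an unadjusted p under 0.05, and 0 calls in each of 9 alternatives. For Epas1 and Armc8, at 0 in every library with exon 5, the level without exon 5 was 90.9 ± 30.5 and 97.9 ± 35.8 CPM, but neither passed in that direct test.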

How the data were processed

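Per the file headers, the deposited values are unnormalised counts for each gene's 3' UTR, CDS and 5' UTR, beside the lengths of these regions. The submitters' processing notes name mm10, TopHat2 and DESeq2. Not given in the sources used here are how reads were filtered and counted, with or without strand, and whether they were collapsed by the random bases of the primers. Intervals and floors therefore cover counting error only, and overlapping or near-identical genes may share reads. Of the identifiers called higher, 14 had the same counts as another one in every library. A further 27 columns with values of single samples were not used.

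Counts were tested in R 4.3.3 with edgeR 4.0.16 (quasi-likelihood F-test, robust, TMM, library sizes from the 3' UTR table). The filterByExpr minimum was 10 counts, and 15 in total. All 9 libraries in 3 groups entered 1 fit, the contrast was exon 5 minus input, and p-values were adjusted by Benjamini-Hochberg over all genes tested at 0.05. The test was also run on simulated counts with a fixed spread, in which only well-counted genes were changed. That run does not vouch for calls with inputs at 0. Relative 3' UTR use was tested with diffSpliceDGE of edgeR, and shares with a two-sided exact permutation test. Bounds use 3 counts per library. The 20 fits are the one described and 19 alternatives: other scalings, filters, tools (DESeq2 1.42.0, limma 3.58.1), libraries left out, a replicate block and a length correction.

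Genes were matched by the symbols of the deposited tables, and coordinates are those of RefSeq for GRCm38.p6. Named genes were Chtop, the 10 highest with at least 10 input counts, the 10 highest bounds, the 10 lowest, the 5 highest levels in CPM and in CPM per kilobase, up to 4 called members per list and direction (or the best counted), the 5 extremes of 3' UTR against CDS in each direction (1 of them is not reported here), and the called genes with the longest and shortest 3' UTR. The sets of 10 took only called genes with a symbol whose groups did not overlap, so that separation was part of the choice. The genes, lists and rules were chosen with earlier results of these data known. Replicate numbers of the titles could not be shown to pair the libraries with exon 5 with the inputs, so the block stands with the alternatives. Low input counts limit that check.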

Additional observations from a re-analysis of the deposited data

How the results depend on the processing

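Genes higher and lower with exon 5 numbered 505 and 28, with a median log2 fold change of 1.37 and 95 calls of relative 3' UTR use. Scaling gave 165 higher (34 lower, median 0.87) with library size alone, a median of 1.20 with RLE factors, 38 and 8 (0.73) with factors from all gene parts and 32 and 10 (0.68) with sizes that leave out Lars2, D10Wsu102e and Scd2. DESeq2 gave 1082 and 143 (1.21), limma-voom a median of 1.81, the 6 libraries alone 3 and 3 (1.08) with 0 calls of relative use, no filter 314 and 47 (1.43), and a minimum count of 30 a median of 1.25. Removing the length trend gave a median of 1.60 and turned D10Wsu102e to 2.91. With the replicate numbers of the titles as a block, there were 308 higher and 18 lower (1.97) and 14 calls of relative use. With the numbers of the column headers as the block, chosen after seeing the data, there were 246 and 12 (1.95). Same-numbered libraries with exon 5 and inputs showed no shared deviation (correlations -0.0002 to 0.041 by title and 0.0097 to 0.041 by header). With inputs this shallow, such values cannot show that pairing is absent. Leaving out 1 library, also with the tested genes kept (added after seeing the data), gave 4 to 1376 higher, 1 to 58 lower, medians of 1.26 to 4.91 and 0 to 259 calls of relative use. The longest minus the shortest length bin was -1.40, and -1.30 with library size alone. It reversed to 0.079 with the 6 libraries alone and to 1.23 with at least 10 input counts, a subset picked by input level. It was -0.17 with limma-voom, -0.10 with a minimum count of 30, -0.94 to -0.71 without 1 library with exon 5 and -4.54 to -3.41 without 1 input. Of the values in 19 alternatives of 40 genes (Chtop and those called among the named genes chosen by size, level or length), 516 kept direction and side of the threshold, 234 lost the threshold and 1 reversed. Outside these 40, Sphk2, named for relative use and not called in the 3' UTR, turned from -2.42 to 1.99 without input 2. Where no construction of the alternative shows it, the cause was not tested. Low input depth limits what can be said: 1068 of 4984 genes had no input count.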
